A study of Oryza sativa Japonica Group with 21 samples.

Results

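The rice CESA genes encode the catalytic subunits of cellulose synthase, and all 9 members named CESA1 to CESA9 were found by gene symbol or synonym in the array annotation. The 9 genes, of 17905 that the annotation names, were measured by 13 probe sets, of 57258 tested on the array. CESA1, CESA2, CESA3, CESA5, CESA6 and CESA8 were taken as primary-wall members (6 genes, 9 probe sets), and CESA4, CESA7 and CESA9 as secondary-wall members (3 genes, 4 probe sets). CESA1, CESA2, CESA3 and CESA4 each had 2 probe sets, written here with A and B after the gene name, and the other 5 genes had 1 each. The plot of levels gives each probe set's identifier.

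RNA came from rice (Oryza sativa ssp. japonica) of the cultivar Zhonghua 15, with no mutant or treated plants among the groups. The 7 groups of 3 arrays were stamens of stages 2, 3, 4, 5 and 6, dissected under a microscope, then the primordium of the third leaf and the third leaf just after it had expanded. The series describes the 3 arrays of a group as biological replicates and the leaf samples as controls, since leaves and stamens are homologous organs. Leaf primordia were dissected out of embryos, after 2 to 3 days of soaking the seeds. The values are log2 signals of Affymetrix arrays from amplified RNA. The number of arrays limits the precision. In such dissected organs, fewer cells of a type and less RNA per cell cannot be told apart.

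Cellulose is spun into the wall by complexes in the plasma membrane that hold several different CESA proteins. One set of CESA proteins serves the thin, extensible primary wall of growing cells, and another serves the thick secondary wall laid down after growth, in xylem, in fibres and in the anther wall. In rice, mutants of CESA4, CESA7 and CESA9 have brittle culms, with less cellulose in their secondary walls. Because each probe set has its own response, values are compared here between groups within a probe set and never between genes.

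The tissues were checked with marker genes. Summed over 5 floral organ identity genes (OsMADS16, OsMADS2, OsMADS4, OsMADS3 and OsMADS58), log2 values were 53.6 to 56.8 in stamens, against 30.3 to 31.5 in leaf primordia and 30.7 to 38.5 in expanded leaves. Summed over 4 photosynthesis genes they were 29.6 to 33.0 in stamens, against 28.9 to 29.4 in leaf primordia and 53.6 to 56.8 in expanded leaves. The 2 mitotic cyclins used to mark dividing cells summed to 20.6 to 22.9 in stamens, against 7.61 to 7.90 in leaf primordia and 7.07 to 7.54 in expanded leaves, so both averaged under 5 in both leaf groups. The 3 embryo genes summed to 19.3 to 24.0 in stamens, against 40.4 to 40.6 in leaf primordia. Of 6 names searched as vascular or xylem markers only HOX32 and OSHB3 were matched, and neither is specific to xylem. OSHB3 was matched by synonym to a gene with the symbol WOX4, and may not be the gene of that name. The 2 matched genes summed to 16.0 to 17.4 in stamens, against 15.3 to 17.1 in leaf primordia and 13.5 to 15.7 in expanded leaves. The part of cell make-up in the CESA values was not tested. Arrays of the same group correlated at 0.981 to 0.995 over all probe sets, except in expanded leaves, at 0.931 to 0.949.

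Most primary-wall members gave clear signals in every stamen array. CESA6 ranged over the 15 stamen arrays from 12.11 through a median of 12.45 to 12.99. CESA1-B ranged from 11.03 through 11.73 to 12.00. The stamen arrays of both genes therefore spanned less than 1 log2 unit. CESA3-B had a lowest value of 10.62, a median of 11.11 and a highest of 11.37 in stamens. CESA5 had 10.33, 10.88 and 11.24, and CESA8 had 9.41, 10.04 and 10.59. The CESA2 probe sets varied more among stamens, with 6.88, 7.65 and 9.15 for CESA2-A.

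The 3 secondary-wall members were not alike on the array. CESA7 lay between 2.98 and 3.57 over all 21 arrays, and its mean stood at percentile 5.67 of the means of all probe sets. CESA9 lay between 3.79 and 4.67, at percentile 22.6. Both were below 5.91, the median of those means, in every group, so their probe sets gave no signal well above the lower part of the array in stamens or leaves. CESA4 had a measurable signal: CESA4-B ranged over the stamen arrays from 7.71 through 7.90 to 8.41, and CESA4-A from 7.05 through 7.32 to 7.66. Averaged over all 21 arrays, both CESA4 probe sets were above the median of 5.91. In expanded leaves CESA4-B averaged 5.78, below it.

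**Figure D1:**
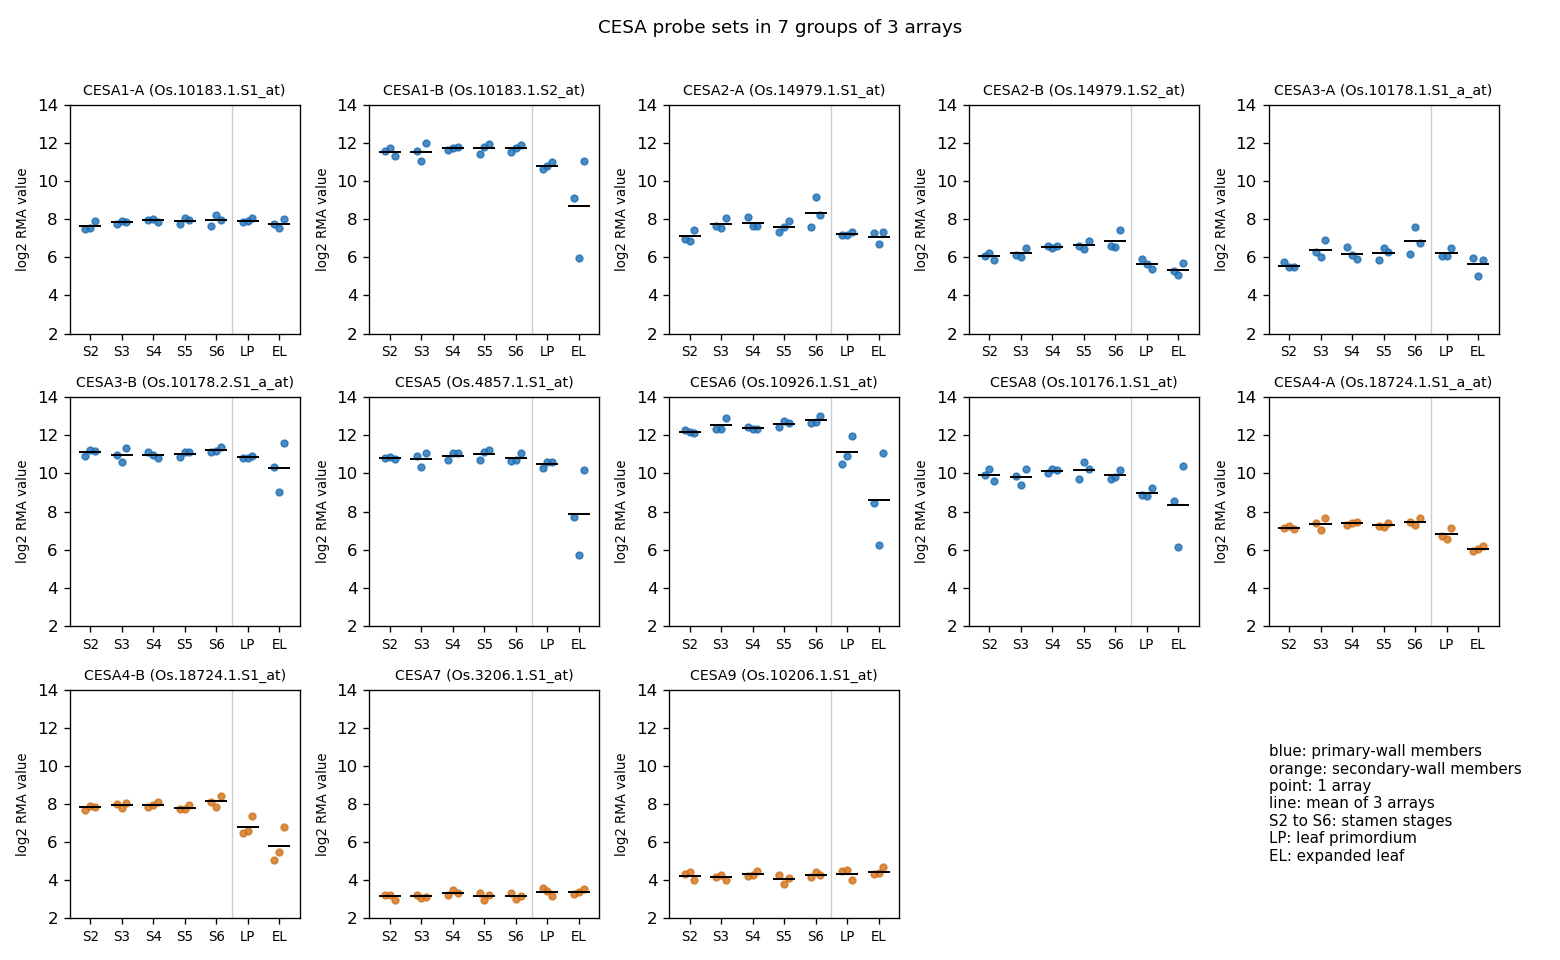
Log2 values of the 13 CESA probe sets (vertical axis) in stamens of stages 2 to 6 (S2 to S6), leaf primordia (LP) and expanded leaves (EL), with 1 point per array and a line at the mean of 3 arrays. CESA7 stays between 2.98 and 3.57 and CESA9 between 3.79 and 4.67, while the expanded leaf arrays of CESA1-B, CESA5, CESA6 and CESA8 spread over several log2 units.

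In the comparison of stamens with leaf primordia, a probe set was called when its Benjamini-Hochberg adjusted p from limma was under 0.05 and its difference at least 2-fold. CESA4-B was the 1 probe set of 13 called higher in stamens, and none was called lower. Of all probe sets on the array, 7.59% were called higher, a share near that of the 13, and 6.71% lower. By adjusted p alone 3 of the 13 passed, and by unadjusted p under 0.05, 5. The 13 differences had a median of 0.50, beside -0.03 for all probe sets.

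CESA4-B averaged 7.93 ± 0.19 in stamens (SD, n = 15), against values of 6.50, 6.60 and 7.35 in leaf primordia. Every stamen array lay above every leaf primordium array. The difference was 1.12 (SE 0.242, 2.17-fold, adjusted p = 0.00147). Without leaf primordium replicate 1 the difference was 0.96, under 2-fold (adjusted p = 0.020), and with the 3′ to 5′ signal difference of control genes as a covariate it was 0.87 (adjusted p = 0.00805). The other CESA4 probe set differed by 0.51 (adjusted p = 0.00334), also under 2-fold. With both probe sets averaged, CESA4 differed by 0.81 (adjusted p = 0.000955) and was not called.

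Among the primary-wall members, CESA2-B had the lowest adjusted p, 0.0013, at a difference of 0.81, under 2-fold. CESA6 averaged 12.50 ± 0.26 in stamens (SD, n = 15), against 10.51, 10.91 and 11.95 in leaf primordia. Its stamen and primordium values did not overlap, but the difference of 1.37 was not called in the fit of all 7 groups (adjusted p = 0.0758). CESA8 averaged 9.99 ± 0.31 in stamens (SD, n = 15), against 8.85, 8.82 and 9.23 in leaf primordia. Its values did not overlap either, with a difference of 1.03 (adjusted p = 0.137). CESA6 and CESA8 were called when arrays were weighted by their spread and when only stamens and leaf primordia were fitted. In the latter fit the adjusted p was 3.19e-05 for CESA6 and 0.000194 for CESA8, at the same differences. The fit of all 7 groups also takes in the spread of expanded leaves. The expanded leaf SD was 2.43 for CESA6 and 2.15 for CESA8, against 0.74 and 0.23 in leaf primordia.

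In 4 probe sets, of CESA1, CESA4, CESA6 and CESA8, the stamen and primordium ranges did not overlap, and in all 4 the stamens were above. Of all probe sets, 20% had ranges without overlap in either direction. CESA5 differed by 0.37 (95% confidence interval -0.70 to 1.45), CESA7 by -0.20 (-0.41 to 0.01) and CESA9 by -0.13 (-0.39 to 0.13).

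More members were called against expanded leaves. Of the 13 probe sets 7 were called higher in stamens, covering 6 genes, and none was called lower, while of all probe sets 13.3% were called higher and 9.97% lower. The 7 were 5 of the 9 primary-wall probe sets, of CESA1, CESA2, CESA5, CESA6 and CESA8, and both probe sets of CESA4. By adjusted p alone 10 of the 13 passed. With the probe sets of each gene averaged, 5 genes were called, and CESA2 was not, at 0.87. The median difference of the 13 was 1.11, beside -0.08 for all probe sets.

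CESA6 had the largest of the 13 differences, with the 15 stamen arrays at 12.11 or above, against 8.44, 6.22 and 11.08 in expanded leaves. The difference was 3.92 (SE 0.565, 15.1-fold, adjusted p = 1.53e-05). CESA5 had stamen values of 10.33 or above, against 7.73, 5.71 and 10.17 in expanded leaves. It differed by 2.99 (SE 0.508, 7.96-fold, adjusted p = 8.99e-05). Both genes thus had every stamen array above every expanded leaf array.

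CESA1-B differed by 2.95 (SE 0.584, adjusted p = 0.000418). Its expanded leaf values were 9.10, 5.94 and 11.06, and the highest lay within the stamen range. The other CESA1 probe set, CESA1-A, differed by 0.10 (SE 0.119), so the 2 probe sets of this gene disagree. CESA8 differed by 1.63 (SE 0.500, adjusted p = 0.0121), with expanded leaf values of 8.56, 6.12 and 10.40.

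CESA4-B differed by 2.15 (SE 0.242, 4.44-fold, adjusted p = 7.7e-07), with stamens at 7.71 or above and expanded leaves at 5.04, 5.50 and 6.80. CESA4-A differed by 1.28 (SE 0.122, adjusted p = 9.73e-08). The expanded leaf values of that probe set, 5.95, 6.01 and 6.20, were close together. CESA4 was the secondary-wall member with a called difference in this comparison. CESA7 differed by -0.19 (95% confidence interval -0.40 to 0.02) and CESA9 by -0.24 (-0.50 to 0.02).

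The CESA2 call by CESA2-B (1.11, adjusted p = 3.74e-05) and the CESA8 call were lost without expanded leaf replicate 2. Without that array CESA2-B differed by 0.96, under 2-fold, and CESA8 by 0.51 (adjusted p = 0.214). Without expanded leaf replicate 3, CESA3-B was called as well, at 1.38 (adjusted p = 6.79e-05). In 5 of the 13 probe sets stamen and expanded leaf ranges did not overlap, while 25.1% of all probe sets had such ranges.

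**Figure D2:**
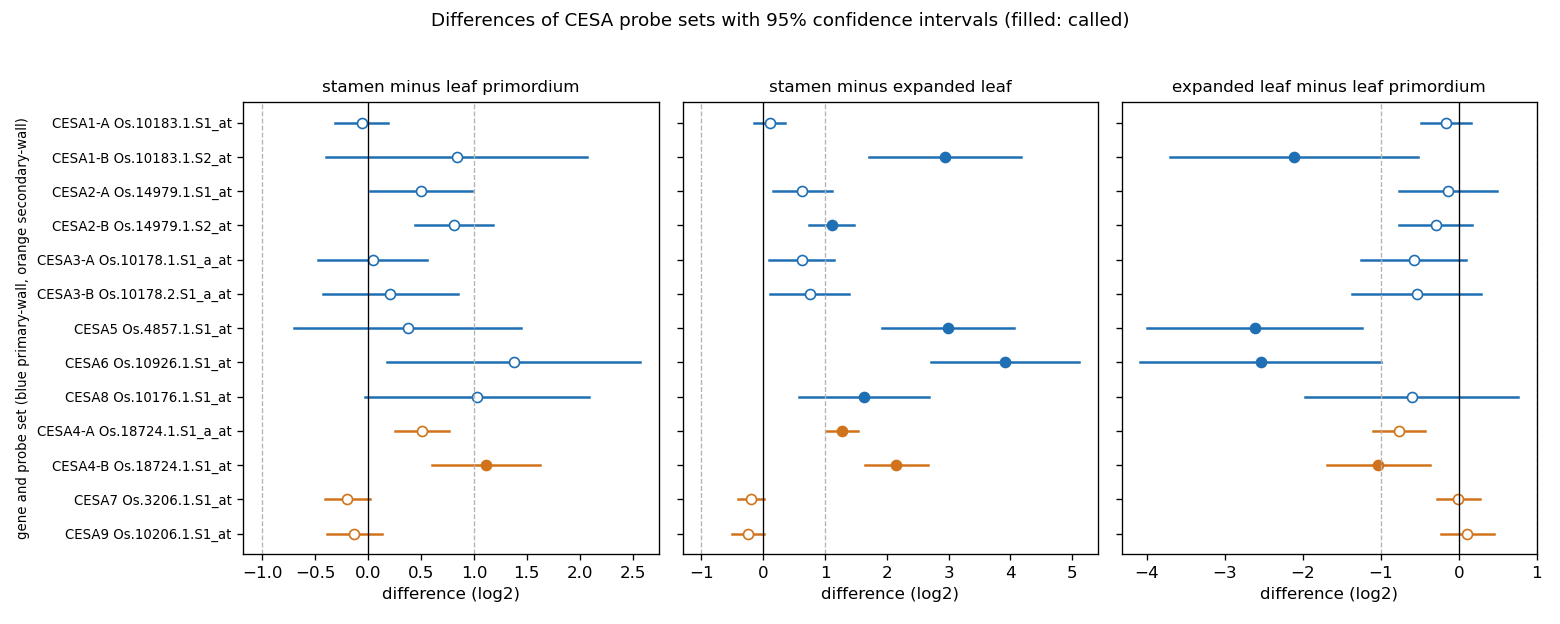
Differences (log2, horizontal axis) of the 13 CESA probe sets for stamen minus leaf primordium, stamen minus expanded leaf and expanded leaf minus leaf primordium, with 95% confidence intervals; filled points are called and dashed lines mark 2-fold. In the middle panel 7 probe sets are called higher in stamens, up to 3.92 for CESA6, and the CESA7 and CESA9 intervals stay close to 0.

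Between the leaf groups, 4 of the 13 probe sets were called lower in expanded leaves and none higher, while of all probe sets 12.8% were called lower and 9.84% higher. They were CESA5 at -2.62 (SE 0.655, adjusted p = 0.00395), CESA6 at -2.54 (SE 0.730, adjusted p = 0.0105), CESA1-B at -2.11 (SE 0.753, adjusted p = 0.0373) and CESA4-B at -1.03 (SE 0.312, adjusted p = 0.0145). CESA5 had 7.73, 5.71 and 10.17 in expanded leaves, against 10.29, 10.59 and 10.60 in leaf primordia. Its leaf groups did not overlap. Those of CESA1-B, CESA4-B and CESA6 did. CESA4-A differed by -0.77 (adjusted p = 0.000764), under 2-fold, and its leaf groups did not overlap. CESA1-A differed by -0.16 and was not called, so the probe sets of CESA1 disagree here too. Ranges without overlap were found in 3 of the 13 probe sets and in 38.5% of all probe sets.

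None of the 4 was called in a fit of the leaf groups alone, where the spread of the expanded leaf arrays is not averaged with that of the stamens. The adjusted p was then 0.151 for CESA5, 0.215 for CESA6, 0.312 for CESA1-B and 0.218 for CESA4-B. CESA1-B lost its call without any 1 of the leaf primordium arrays (adjusted p = 0.0630, 0.0796 and 0.0963 without replicates 1, 2 and 3). Without expanded leaf replicate 2 it differed by -0.73 (adjusted p = 0.162). CESA4-B lost its call without leaf primordium replicate 3 (-0.77), expanded leaf replicate 1 (-0.67) or expanded leaf replicate 2 (-0.90). CESA6 lost it without leaf primordium replicate 3 (-2.13, adjusted p = 0.0567). Without expanded leaf replicate 3, CESA3-B (-1.17) and CESA8 (-1.62) were called lower as well. Without expanded leaf replicate 2 the differences of these probe sets were instead 0.11 and 0.52, neither called, so their direction depended on the array left out.

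The 3 expanded leaf arrays lay far apart in several members. In CESA1-B, CESA3-B, CESA5, CESA6 and CESA8 they spanned at least 2 log2 units, and up to 5.12 in CESA1-B. In all 5 replicate 2 was lowest and replicate 3 highest. CESA3-B had 10.33, 9.02 and 11.58 in replicates 1, 2 and 3. Replicate 3 was thus above every stamen array, and replicates 1 and 2 were below every one. All 5 probe sets belong to primary-wall members. Of all probe sets 7.01% had such a span in expanded leaves, and 29.2% of those ran in the same order of arrays, while 0.257% had such a span in leaf primordia.

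Other measures moved with these arrays. The floral organ identity genes summed to 31.5, 30.7 and 38.5 in expanded leaf replicates 1, 2 and 3, and the embryo genes to 19.3, 18.5 and 26.0. The 2 genes searched as vascular markers, HOX32 and OSHB3, summed to 13.6, 13.5 and 15.7. The floral, embryo and vascular sums all ran in the same order of arrays as those 5 probe sets. The photosynthesis genes summed to 56.8, 53.6 and 53.8. The cyclins, at 7.22, 7.07 and 7.54, varied little but also had replicate 2 lowest and replicate 3 highest. The 3′ to 5′ signal difference of actin and GAPDH was 1.73, 1.96 and 3.37 log2 units. The part of each in the CESA values was not tested.

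**Figure D3:**
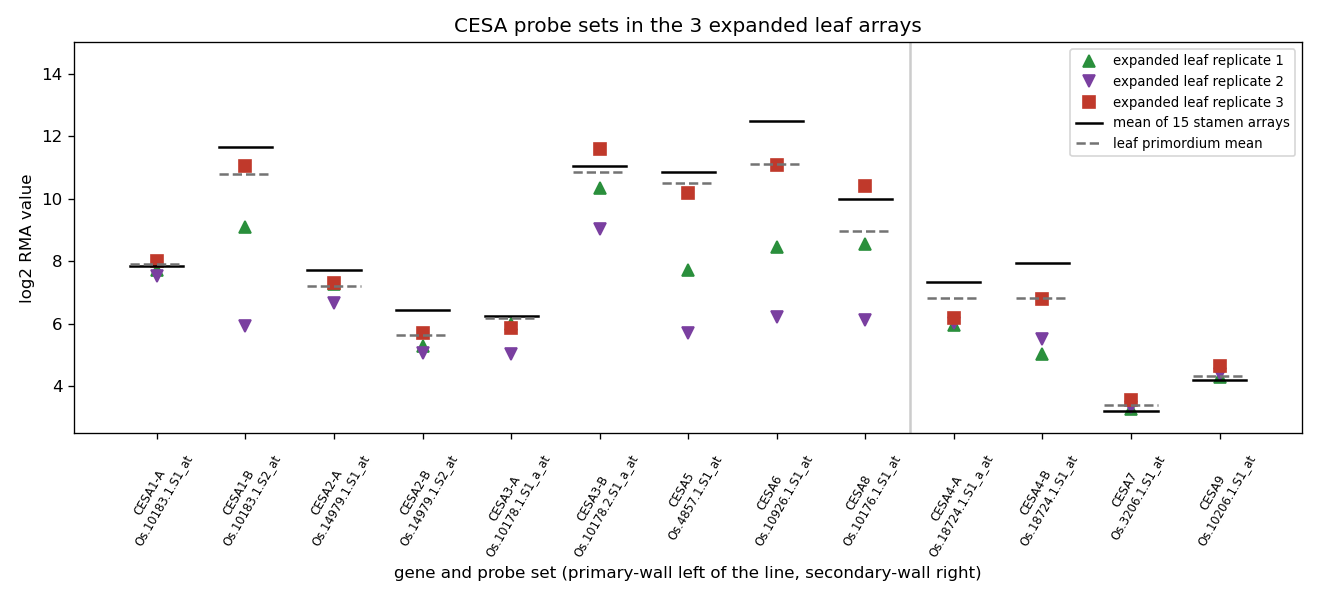
Log2 values (vertical axis) of each CESA probe set in the 3 expanded leaf arrays, with the mean of the 15 stamen arrays (solid line) and of the leaf primordia (dashed line). Replicate 3 lies near the stamen or primordium mean for CESA1-B, CESA5 and CESA8, whereas replicate 2 lies far below it, at 5.94, 5.71 and 6.12.

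Few CESA probe sets were called across stamen development. Between stage 6 and stage 2, 2 of the 13 probe sets were called higher and none lower, while of all probe sets 4.4% were called higher and 3.47% lower. They were CESA2-A and CESA3-A, both primary-wall members. The median of the 13 differences was 0.29, beside -0.03 for all probe sets.

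CESA2-A had 7.61, 9.15 and 8.22 at stage 6, against 6.97, 6.88 and 7.43 at stage 2. The stages did not overlap, and the difference was 1.23 (SE 0.296, 2.35-fold, adjusted p = 0.00808). CESA3-A had 6.18, 7.57 and 6.77 at stage 6, against 5.73, 5.48 and 5.49 at stage 2. Its difference was 1.27 (SE 0.317, 2.42-fold, adjusted p = 0.0102). In both, stage 6 replicate 2 was the highest of all stamen arrays. Without it, CESA2 differed by 0.82 (adjusted p = 0.0455), under 2-fold, and CESA3 by 0.91 (adjusted p = 0.0675).

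The 2 genes differed in how their second probe sets behaved. CESA2-B had 6.58, 6.56 and 7.43 at stage 6, against 6.06, 6.25 and 5.87 at stage 2. It differed by 0.80 (adjusted p = 0.0208), under 2-fold, and its stages did not overlap. CESA3-B differed by 0.11 (95% confidence interval -0.71 to 0.93), with overlapping stages. Averaged over its 2 probe sets, CESA2 differed by 1.01 (adjusted p = 0.0019) and was called, while CESA3 differed by 0.69 (adjusted p = 0.161) and was not.

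The 3′ to 5′ measure of the actin and GAPDH controls moved with stage. The 3′ to 5′ signal difference was 3.19 to 3.41 at stage 2, 1.45 to 2.69 at stage 3, 1.96 to 2.07 at stage 4, 1.86 to 2.16 at stage 5 and 1.27 to 1.94 at stage 6, where replicate 2 was lowest. With this measure as a covariate, neither probe set was called between stage 6 and stage 2, with differences of 0.81 for CESA2 (adjusted p = 0.331) and 0.79 for CESA3 (adjusted p = 0.384). The control probe sets behind the measure were chosen after their values were seen. With the other actin and GAPDH control probe sets of the array, neither of the 2 was called, at 1.01 (adjusted p = 0.0825) and 0.89 (adjusted p = 0.127), and CESA2-B was called instead, at 1.01 (adjusted p = 0.0199). The 2 tapetum markers, TDR and CYP703A3, summed to 7.0 to 7.45 at stage 2, 7.25 to 7.90 at stage 3, 7.85 to 8.19 at stage 4, 10.1 to 11.6 at stage 5 and 12.9 to 13.0 at stage 6. Their part in the CESA values was not tested.

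**Figure D4:**
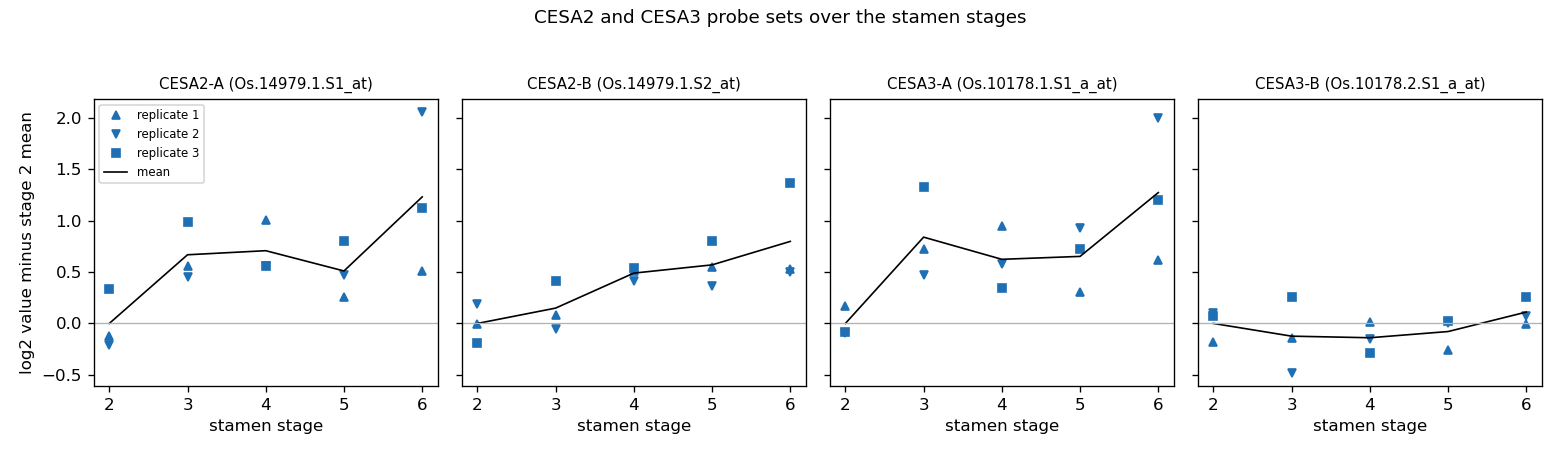
Log2 values of the 4 probe sets of CESA2 and CESA3 minus their stage 2 mean (vertical axis) over stamen stages 2 to 6, with 1 symbol per replicate and a line through the means. Stage 6 replicate 2 is the highest point of CESA2-A and of CESA3-A, and the stage 6 mean of CESA3-B is 0.11 above its stage 2 mean.

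No other member was called between stage 6 and stage 2, though several intervals were wide. They rest on the spread in all 7 groups, including expanded leaves, with SDs there of 2.23 for CESA5 and 2.43 for CESA6. At stages 2 and 6 the SDs were 0.07 and 0.23 for CESA5, and 0.09 and 0.18 for CESA6. CESA5 differed by -0.01 (95% confidence interval -1.39 to 1.38) and CESA8 by -0.02 (-1.38 to 1.35). CESA6 had 12.66, 12.69 and 12.99 at stage 6, against 12.29, 12.20 and 12.11 at stage 2. Its stages did not overlap, but the difference of 0.58, under 2-fold, was not called (adjusted p = 0.702). CESA7 differed by 0.03 and CESA9 by 0.06. These values moved with the 3′ to 5′ covariate, whose slope the fit shared among all 7 groups. With it CESA5 differed by 1.57, CESA6 by 2.28, CESA8 by 1.27, CESA1-B by 1.61 and CESA4-B by 1.13, none of them called (adjusted p = 0.128 to 0.489). With the control probe sets first used, CESA5 differed by 0.50, CESA6 by 1.01 and CESA8 by 0.21. The slope also rests on expanded leaves, where the measure was 1.73, 1.96 and 3.37 and CESA5 was 7.73, 5.71 and 10.17. Whether that slope holds within the stamens was not tested. Ranges without overlap occurred in 5 of the 13 probe sets and in 37.2% of all probe sets.

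Between consecutive stages limma called 0 of the 13 probe sets in each of the 4 comparisons, while of all probe sets 1.55% were called for stage 3 against stage 2, 0.00699% for stage 4 against stage 3, 0.0437% for stage 5 against stage 4 and 0% for stage 6 against stage 5. At an unadjusted p under 0.05 there were 2 CESA probe sets for stage 3 against stage 2 (CESA2-A and CESA3-A), 1 for stage 6 against stage 5 (the same CESA2 probe set) and 0 for the other pairs. Limma's F test over the 5 stages, with a 2-fold range of stage means, also called 0 of 13, beside 7.23% of all probe sets. At an unadjusted p under 0.05 it gave 3, and with array weights it called 2.

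In the order of group means, the 5 stamen groups stood above both leaf groups for CESA1-B, CESA2-B, CESA3-B, both CESA4 probe sets, CESA5, CESA6 and CESA8. Leaf primordium was next and expanded leaf lowest for each of these. CESA1-A, CESA2-A and CESA3-A did not follow that order. Stage 2 had the lowest mean of all groups for CESA1-A (7.65) and CESA3-A (5.57), and for CESA2-A it lay below leaf primordium, at 7.09 against 7.22. Neighbouring stamen stages in that order overlapped in their ranges, except stages 4 and 3 of CESA2-B and stages 4 and 2 of CESA6. For CESA7 and CESA9 the leaf groups had the highest means, and all neighbours overlapped.

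Other genes of the wall were described for the same arrays, from lists of names in the annotation with 1 probe set per gene. The list of cellulose synthesis partners held 11 genes, among them sucrose synthases, which can supply UDP-glucose for cellulose, COBRA-like BC1 genes and the endoglucanase GLU1. Against leaf primordia 2 were called higher in stamens, 4 lower and 5 not, beside 7.59% higher and 6.71% lower of all probe sets. Against expanded leaves 7 were called higher, 2 lower and 2 not, beside 13.3% and 9.97% of all probe sets. The median difference from expanded leaves was 1.37, beside -0.08 for all probe sets. BC1L2, a COBRA-like gene, had stamen values of 10.57 or above, against 4.59, 5.11 and 4.77 in expanded leaves, a difference of 6.59 (SE 0.200, adjusted p = 1.62e-14). SUS1 differed by 5.89 from expanded leaves, GLU1 by 4.11 and BC1L9 by 2.96. BC1L9 had expanded leaf values of 9.24, 5.64 and 11.37, in the order also seen in CESA6. The sucrose synthase SUS5 was called lower in stamens, at 3.07 to 3.66, against 6.80, 7.09 and 7.99 in leaf primordia. Its stamen values lay in the low part of the array, as those of CESA7 did, so the difference gives only a bound on its size.

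Cellulose synthase-like genes make other wall polysaccharides, such as mannans and mixed-linkage glucans. Of 20, against leaf primordia 2 were called higher in stamens and 3 lower (7.59% and 6.71% of all probe sets), and against expanded leaves 9 were called higher and 2 lower (13.3% and 9.97% of all probe sets). CSLC9 differed by 4.75 from expanded leaves and CSLE1 by -3.87. Xylan, the main hemicellulose of grass walls, was represented by 10 genes. Against leaf primordia 1 was called higher (IRX9, at 1.18), a share near the 7.59% of all probe sets. Against expanded leaves 4 were called higher and 1 lower, beside the same 13.3% and 9.97%, led by XAT2, a xylan arabinosyltransferase, at 4.19.

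Lignin stiffens secondary walls. Of 15 genes matched by lignin names, against leaf primordia 4 were called higher in stamens and 4 lower. Against expanded leaves 2 were called higher and 8 lower. C3H1 was matched by the symbol OsC3H1 and may not be the lignin gene of that name. Its group means lay between 3.54 and 3.74, and it is not among the called genes. Of all probe sets 7.59% were higher and 6.71% lower against leaf primordia, and 13.3% and 9.97% against expanded leaves. CCR1 differed by -5.28 from leaf primordia. The ligase gene 4CL3 was called lower, at 3.49 to 4.18 in stamens, against 7.27, 6.86 and 9.17 in expanded leaves, again only a bound, since its stamen values lay low on the array. CAD7 differed by 3.16 from expanded leaves. Between stage 6 and stage 2, HCT2 differed by -3.83 and CAD7 by 2.66. The one matched regulator of secondary walls, NAC7, lay between 3.77 and 4.40 on all arrays and was called in none of the comparisons with leaves.

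**Figure D5:**
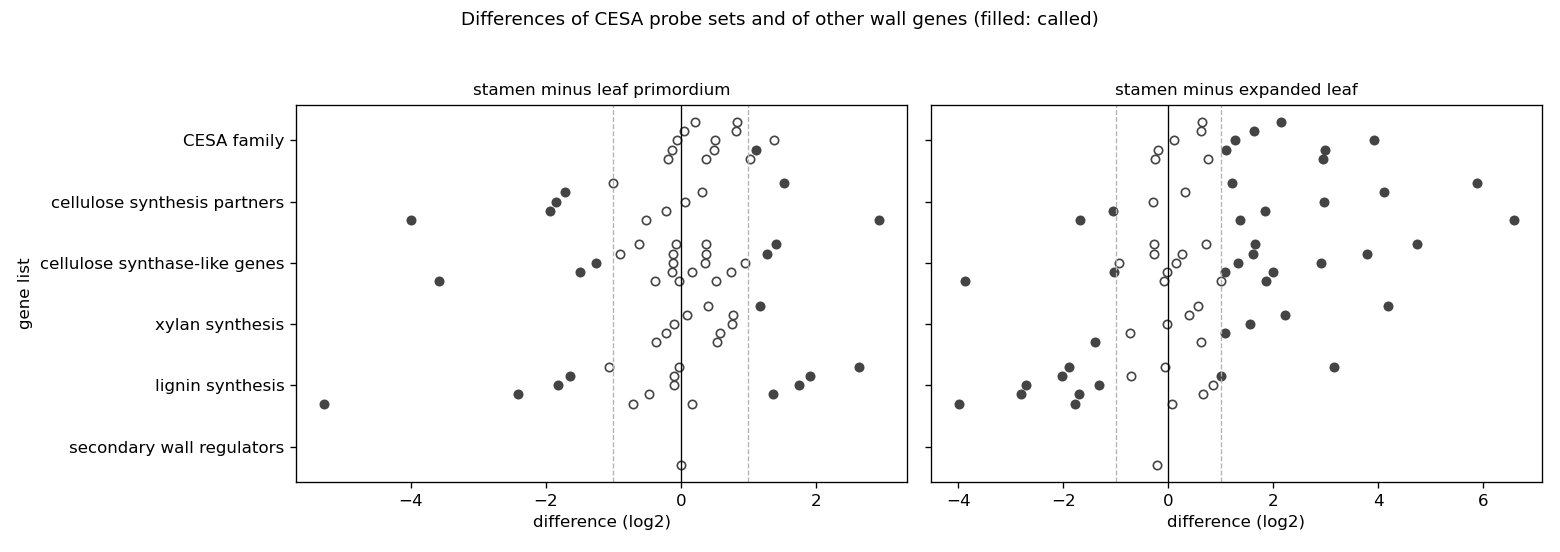
Differences (log2, horizontal axis) of the 13 CESA probe sets and of genes on 5 wall gene lists for stamen minus leaf primordium (left) and stamen minus expanded leaf (right), with filled points for called ones and dashed lines at 2-fold. Against expanded leaves the CESA points run up to 3.92 and BC1L2 reaches 6.59, while 8 of the 15 genes matched by lignin names are called lower.

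The genes whose 7 group means were most like those of each CESA member were taken from 2332 probe sets with an informative gene name and a range of means of at least 1 log2 unit. For a gene with 2 probe sets the brighter was used (CESA1-B, CESA2-A, CESA3-B and CESA4-B), so the likeness is that of the probe set. For CESA6 they were the Argonaute genes AGO1B (Pearson r = 0.999 over the 7 group means) and AGO1 (0.999). For CESA1-B they were BGLU8 (0.999) and LIP1P-2 (0.999), for CESA8 NEDD8 (0.997) and CKS1 (0.995), and for CESA5 HAP3 (0.996) and R40C1 (0.996). CESA4-B was closest to GL2-3 (0.996) and AGO1D (0.993), CESA3-B to ARF1 (0.990) and RTEL1 (0.988), and CESA2-A to TPP2 (0.984) and OsPP2C29 (0.976). CESA7 and CESA9 had ranges of means of 0.249 and 0.391, and their best matches reached 0.939 (CIPK2) and 0.873 (RFS). These correlations describe 7 points that share arrays. For each probe set used, except those of CESA7 and CESA9, expanded leaf had the lowest of the 7 means.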

How the data were processed

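Total RNA was amplified in a 2-cycle assay and hybridized to Affymetrix rice arrays, per the labels' protocols. The deposited table holds log2 values, 1 per probe set and array, from RMA, per the submitters' processing notes, with the RMA version not given in the sources. They were used as deposited. Of 57381 probe sets, 123 controls were left out. Annotation of assembly ASM3414082v1 gave gene names only, with the first informative synonym where the symbol was a locus number. Of the tested probe sets 22436 had 1 gene, 95 several and 34727 none.

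One limma fit (limma 3.58.1, R 4.3.3) of 7 group means to 21 arrays gave the comparisons, two-sided, with Benjamini-Hochberg adjustment over all probe sets. The spread of the expanded leaf arrays therefore enters every comparison. It was tested on simulated data. Members and lists were chosen with earlier results of these data known. All CESA probe sets are named, with up to 4 called genes per other list and comparison and 2 genes of like pattern per member.

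The 3′ to 5′ measure averages 3′ minus 5′ log2 values of the actin and GAPDH control probe sets. As a covariate it had a slope shared by all 7 groups. The array carries 2 such sets of controls. The one first used was replaced after its GAPDH 3′ values proved to lie near the array median, below its 5′ values. Both are reported. Same-numbered arrays of different groups deviated together at r between -0.43 and 0.48. The numbers were not taken as pairs, and whether same-numbered arrays shared a batch was not tested. Other settings are in the closing section.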

Additional observations from a re-analysis of the deposited data

How the results depend on the processing

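No CESA difference that was called changed sign under any of the settings run. For stamens against leaf primordia, 1 probe set was called; array weights, a fit of only the groups compared, and no fold threshold each gave 3, while the 3′ to 5′ covariate and averaging the probe sets of each gene each gave 0. Leaving out 1 array gave 0 to 1. For stamens against expanded leaves, 7 were called, 10 with no fold threshold, 5 genes with gene means, and 5 to 8 with 1 array left out. For expanded leaves against leaf primordia, 4 were called, 5 with no fold threshold and 0 in a fit of only the groups compared. The control probe sets first used for the 3′ to 5′ covariate gave 2, and leaving out 1 array gave 1 to 6. With gene means, CESA1, CESA5 and CESA6 were called. For stage 6 against stage 2, 2 were called, 3 with no fold threshold and 0 with the 3′ to 5′ covariate. The control probe sets first used for that covariate gave 1, gene means gave 1, and leaving out 1 array gave 0 to 2. Consecutive stages stayed at 0 throughout. The F test over stages gave 0, 2 with array weights, 1 with gene means and 0 to 2 with 1 array left out. The control probe sets of the 3′ to 5′ covariate were chosen after seeing the data, in place of those first used, which were kept as an added alternative. The causes were not tested. With the replicate block the counts were 1, 7, 4, 2, 0 and 0 in the same order, so the block changed none. For CESA7 and CESA9, signal near the bottom of the array limits what can be seen.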
